A study of Mus musculus with 6 samples.

Results

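The genes described here encode the enzymes that build cholesterol and fatty acids, the proteins that switch those enzymes on when sterols run low, and a pair of pumps that export cholesterol. They were taken by gene symbol from a list of 35, of which 33 were named by at least 1 probe set among 12393 genes tested. Acat2 and Insig1 were not analysed here. By role, 6 measured genes belong to the mevalonate arm, 11 to the sterol arm, 5 to sterol sensing and transport, 9 to fatty acid synthesis and 2 to cholesterol export. The mevalonate and sterol arms are called sterol synthesis below (17 genes).

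Transcripts were measured on 6 oligonucleotide arrays in CD4+CD25+ cells, a fraction rich in regulatory T cells (Treg), which had been separated from mice with magnets. The knockout group (3 arrays) carried floxed Dnmt1, the gene of the maintenance DNA methyltransferase, and a Cre recombinase under Foxp3, the transcription factor gene of Treg, on C57BL6. The controls (3 arrays) were wild type C57BL6 animals, with no Cre or floxed allele described, so effects of those alleles cannot be told apart from the deletion. Deletion is expected only in cells that express Foxp3, and the labels state neither the age of the mice nor any pooling of animals. The p-values measure the spread between these samples, which are described as independent without an animal being named for each.

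Sterol synthesis begins with acetyl-CoA, passes through mevalonate to the isoprenoid units that also modify signalling proteins, and then closes squalene into the sterol rings. SREBP2, the product of Srebf2, is a membrane-bound transcription factor that Scap escorts out of the endoplasmic reticulum when sterols are scarce and that Insig proteins hold back when they are not. SREBP1, the product of Srebf1, is better known for fatty acid synthesis, and T cells raise both programmes when they are activated and prepare to divide.

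SREBP factors bind sterol regulatory elements next to CCAAT boxes, the site of NF-Y, and GC boxes, the site of Sp1. Promoters are therefore shown for 3 sterol genes rich in CCAAT boxes and for Acly, the only member that passed the test below. RefSeq windows of 250 bases before to 50 after an annotated start (GRCm38.p6) were found for 25 of the 33 members. Each line gives the 250 bases before the start, with capitals on the sterol regulatory element TCACNCCAC and the CCAAT boxes in Hmgcs1 (chr13:119690101-119690350, plus strand), on the CCAAT boxes in Mvk (chr5:114444019-114444268, plus strand) and Msmo1 (chr8:64733579-64733828, minus strand), and on the GC boxes in Acly (chr11:100528001-100528250, minus strand).
Hmgcs1: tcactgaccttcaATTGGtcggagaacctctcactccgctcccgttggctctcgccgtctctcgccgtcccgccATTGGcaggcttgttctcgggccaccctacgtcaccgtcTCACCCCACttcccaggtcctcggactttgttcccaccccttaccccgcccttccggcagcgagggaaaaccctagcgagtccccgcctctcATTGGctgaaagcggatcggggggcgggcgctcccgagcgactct
Mvk: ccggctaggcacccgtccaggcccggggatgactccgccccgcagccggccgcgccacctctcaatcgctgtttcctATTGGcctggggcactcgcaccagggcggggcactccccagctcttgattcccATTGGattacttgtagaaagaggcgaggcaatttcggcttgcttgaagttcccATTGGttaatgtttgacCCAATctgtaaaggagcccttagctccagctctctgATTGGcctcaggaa
Msmo1: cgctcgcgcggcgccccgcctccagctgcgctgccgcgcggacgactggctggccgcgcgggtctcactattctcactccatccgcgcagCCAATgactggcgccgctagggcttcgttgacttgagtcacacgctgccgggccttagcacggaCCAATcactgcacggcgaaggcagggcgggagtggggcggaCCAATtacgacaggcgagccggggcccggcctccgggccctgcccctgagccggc
Acly: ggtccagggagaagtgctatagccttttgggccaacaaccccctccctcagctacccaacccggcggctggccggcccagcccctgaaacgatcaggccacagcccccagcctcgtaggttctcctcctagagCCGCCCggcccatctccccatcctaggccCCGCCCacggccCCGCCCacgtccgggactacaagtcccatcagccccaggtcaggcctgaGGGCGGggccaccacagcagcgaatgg

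The Hmgcs1 stretch holds the element at position -137 and CCAAT boxes at -237, -176 and -45, counted from the start, a minus sign marking bases before it. Mvk holds 5 CCAAT boxes and Msmo1 holds 3. The Acly stretch holds 4 GC boxes, GGGCGG. Matches were counted on both strands in the whole window, by gene and over all its windows, and matches of different motifs may overlap. Only exact matches were counted, so elements that differ from TCACNCCAC by a single base were missed. A CCAAT box was found in 14 of 14 sterol synthesis genes with a window and in 3 of 6 fatty acid genes, against 42.3% of measured genes. A GC box was found in 13 of the 14 and in 2 of the 6, against 61.0%. TCACNCCAC was found in 1 of the 14, Hmgcs1, in 0 of the 6 fatty acid genes and in 1.5% of measured genes, and the E-box, CANNTG, in 11 of the 14, in 3 of the 6 and in 69.9%. CpG dinucleotides, where Dnmt1 maintains methylation that is already present, numbered 21 per window at the median over member windows and 17 over windows of measured genes. No methylation was measured here, and these matches are descriptions of the sequence.

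Values are log2 expression per probe set, made by the authors with RMA, and each gene is given by its brightest probe set over the 6 arrays. Differences are knockout minus wild type, a difference of 1 being a doubling, and a gene was called when its limma p, adjusted over all 12393 genes by Benjamini-Hochberg, was under 0.05. Deposited values ran from 1.93 to 14.70, with array medians of 5.69 to 5.77, and precision is limited by there being 3 arrays per group. In the knockout, 165 genes were called higher and 71 lower, 1.9% of those tested (1.33% higher and 0.573% lower).

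Only 1 of the 33 members was called, Acly, which rose 1.67-fold in knockout cells. None of the 17 sterol synthesis genes passed (0 by limma, with 5 lower and 1 higher at an unadjusted p under 0.05, where 9.37% of all genes were lower and 8.56% higher), while 12 of the 17 had a negative difference, against 6650 of the 12393 genes. Their median difference was -0.23, against 0.032 for the 9 fatty acid genes and -0.014 for all genes. The medians of the sterol and fatty acid genes thus lay 0.26 apart on the log2 scale, which is a description of these arrays with no test. The fatty acid median lay near zero and turned to -0.0016 when arrays were centred on their medians, while the sterol median was between -0.26 and -0.21 under the 3 scalings tried.

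**Figure D1:**
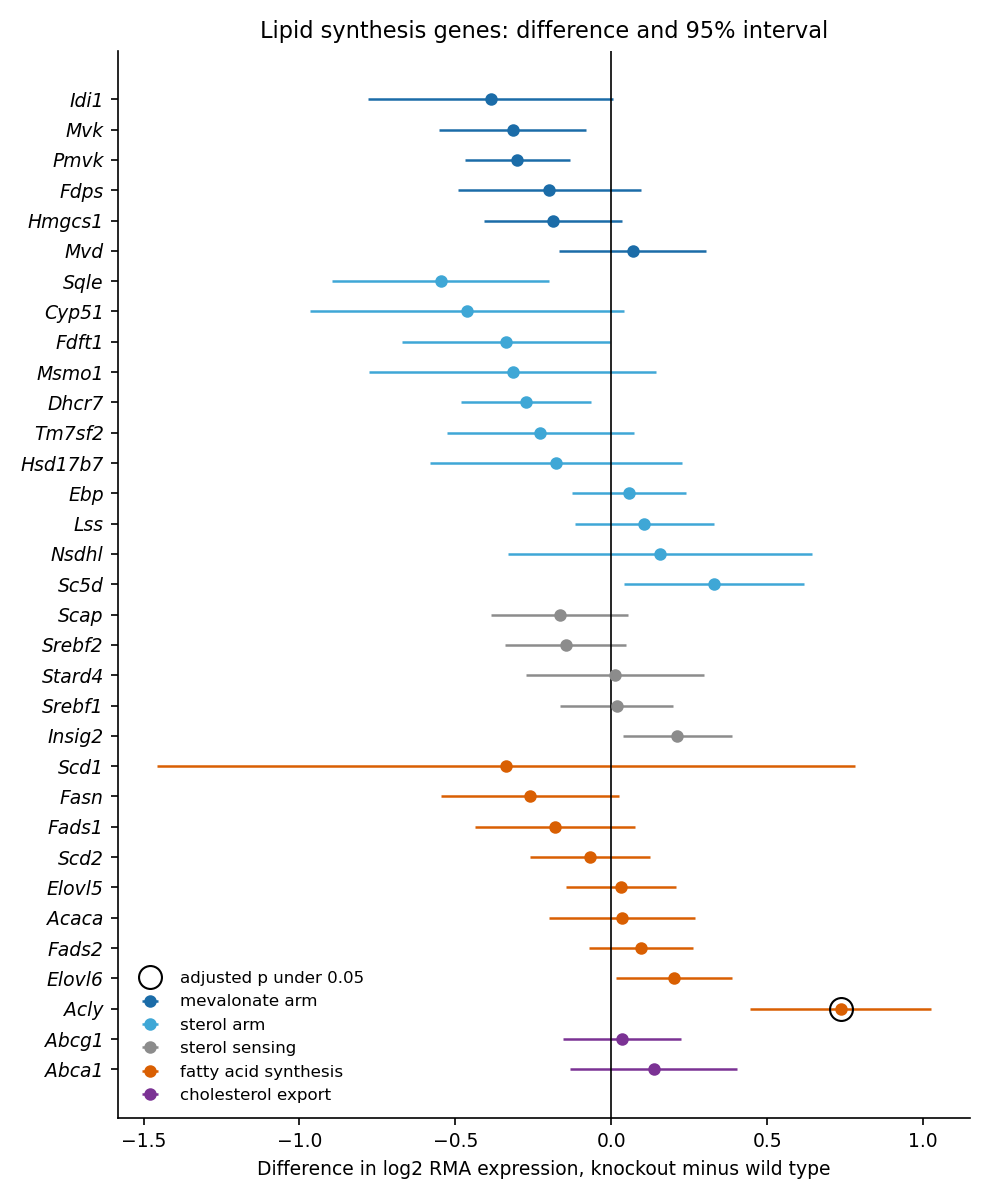
Difference in log2 RMA expression (x axis, knockout minus wild type) for the 33 measured members, grouped by role, with the 95% interval of the limma fit (n = 3 arrays per group). Of the sterol synthesis genes, 12 of 17 lie left of zero, and Acly, ringed, is the only member with an adjusted p under 0.05.

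The knockout arrays differed among themselves. The median of the 17 sterol synthesis genes, each set against its own wild type mean, was -0.0080 on knockout replicate 1, -0.36 on replicate 2 and -0.22 on replicate 3, and between -0.043 and 0.045 on the wild type arrays. Knockout replicates 2 and 3 each lay below all 3 wild type values for 12 of the 17 genes, where 38.0% and 34.2% of all genes did, and replicate 1 for 6 of 17, against 32.3%. The fatty acid genes had medians of -0.036, 0.046 and 0.062 on the same knockout arrays. Replicate 1 was the lowest knockout array for 0 of the 17 sterol synthesis genes and for 4 of the 9 fatty acid genes, against 33.1% of all genes. Without replicate 1 the sterol median was -0.30, and without replicate 2 it was -0.19. The median SD of the sterol genes was 0.11 in wild type and 0.20 in knockout cells, against 0.094 and 0.12 over all genes.

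**Figure D2:**
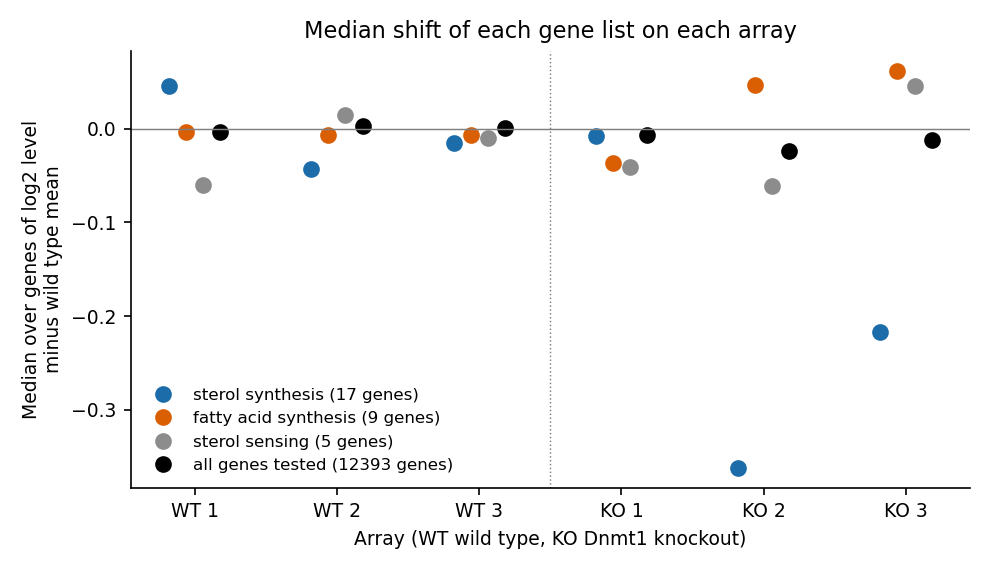
Median over the genes of a list of the log2 level minus the gene's wild type mean (y axis) on each of the 6 arrays (x axis). The sterol synthesis genes lie at -0.36 and -0.22 on knockout replicates 2 and 3 and near zero on replicate 1, while the fatty acid genes stay between -0.036 and 0.062 on all 6 arrays.

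Some marker lists of other cells differed between the groups, and the knockout array furthest from wild type was not the same in each list. Of 17 measured neutrophil markers, 9 were called higher, the list mean being 5.91 ± 0.14 in wild type (SD, n = 3) and 7.48, 9.33 and 8.07 on knockout replicates 1, 2 and 3. Its summed log2 level was 98.5 to 103.1 in wild type and 127.2 to 158.6 in knockout cells. The T cell markers (15 measured, 0 called by limma, 3 lower at an unadjusted p under 0.05) had summed levels of 160.1 to 161.6 and 155.9 to 161.8, with list means of 10.79, 10.50 and 10.39 on the knockout arrays and 10.67 to 10.78 in wild type. Of 17 Treg markers 3 were called lower, with summed levels of 150.5 to 151.5 in wild type and 141.8 to 151.2 in knockout cells and list means of 8.90, 8.61 and 8.34 on the knockout arrays. Of 22 monocyte and macrophage markers 2 were called higher and 1 lower (summed levels 112.8 to 123.6 and 131.9 to 136.0), and of 17 markers of natural killer and CD8 T cells 3 were higher and 2 lower (125.0 to 128.8 and 125.3 to 134.9). Of 13 B cell markers (104.1 to 117.7 and 102.1 to 112.4), 10 erythroid markers (48.1 to 49.9 and 50.7 to 55.0) and 29 proliferation genes (221.4 to 228.1 and 219.5 to 242.3), 0 were called by limma, with 0, 3 and 0 at an unadjusted p under 0.05. RMA gives no value of 0, so no marker is listed at 0. From high to low, 7 of the 17 sterol synthesis genes ordered the knockout arrays 1, 3, 2, the reverse of the neutrophil list, and 0 of 17 followed its order. Neither order was counted over all genes, so these counts have no background share beside them. The part of these cells in the sterol values was not tested, and in a mixed sample fewer cells of a type and less RNA per cell cannot be told apart.

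The targeted gene and Foxp3 were looked at as a check of the labels. Dnmt1 had 9.50 ± 0.07 in wild type and 8.96 ± 0.34 in knockout cells (SD, n = 3, limma adjusted p = 0.152), and Foxp3 9.50 ± 0.02 and 8.84 ± 0.42 (adjusted p = 0.142). By array, Dnmt1 was at 9.56, 9.43 and 9.50 in wild type and at 8.67, 8.89 and 9.335 on knockout replicates 1, 2 and 3. Replicate 1, the lowest in Dnmt1, had a sterol median of -0.0080, and replicate 3, the highest of the knockout arrays, had -0.22. A relation between Dnmt1 and sterol levels across arrays was not tested. Neither Dnmt1 nor Foxp3 passed, though in both each knockout value lay below each wild type value, as in 14% of all genes. A probe set outside the deleted part of Dnmt1, whose place is not stated here, would check nothing.

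Enzymes of the mevalonate arm, which turn acetyl-CoA into the isoprenoid units, had lower means in knockout cells in 5 of 6 genes, and 0 of 6 were called by limma (2 lower and 0 higher at an unadjusted p under 0.05). The lowest p belonged to Pmvk, which encodes phosphomevalonate kinase. It was at 6.75, 6.71 and 6.72 on wild type replicates 1, 2 and 3 and at 6.43, 6.37 and 6.49 on the knockout arrays. All 3 knockout values lay below all wild type values, as in 14% of all genes, and the difference was -0.30 (SE 0.07, limma adjusted p = 0.0938), a 1.23-fold lower mean. Mvk encodes mevalonate kinase, the step just before, and had 6.38, 6.49 and 6.27 in wild type and 6.22, 5.99 and 5.98 in knockout cells. Its groups did not overlap either, with a difference of -0.32 (SE 0.10, adjusted p = 0.169), and its other probe set differed by -0.098. Idi1, encoding the isomerase that balances the isoprenoid building blocks, had 7.69, 7.19 and 7.36 in wild type and 7.16, 6.73 and 7.20 in knockout cells. Here the groups overlapped, knockout replicate 2 standing below the other arrays, and the difference was -0.39 (SE 0.17, adjusted p = 0.287).

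Hmgcs1, encoding the synthase that makes HMG-CoA, had 4 probe sets, and their differences were between -0.32 and -0.18. Its brightest probe set went from 8.33 ± 0.01 to 8.14 ± 0.16 (SD, n = 3), with an adjusted p of 0.351 by limma. Fdps, which encodes farnesyl diphosphate synthase, had a difference of -0.20, and Mvd, encoding the decarboxylase that completes isopentenyl diphosphate, had 0.069, with -0.044 for its other probe set. The 95% intervals of the 6 genes together reached from -0.78 to 0.30.

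In the sterol arm, which runs from squalene to cholesterol, 7 of 11 genes had a negative difference and 0 were called by limma (3 lower and 1 higher at an unadjusted p under 0.05). Sqle encodes squalene epoxidase, a rate-limiting enzyme of the arm, and had the deepest difference of all members. It was at 7.33, 7.10 and 7.08 on the wild type arrays and at 6.86, 6.31 and 6.70 on the knockout arrays. The groups did not overlap, and the knockout mean was 1.46-fold lower (difference -0.55, SE 0.15, limma adjusted p = 0.121). Dhcr7, encoding the reductase of a final step to cholesterol, had 7.995, 7.81 and 7.98 in wild type and 7.69, 7.55 and 7.73 in knockout cells. Each knockout value lay below each wild type value, with a difference of -0.27 (SE 0.09, adjusted p = 0.173). Sc5d, which encodes a sterol desaturase acting just before Dhcr7, went the other way, with 7.31, 7.35 and 7.41 in wild type and 7.93, 7.45 and 7.67 in knockout cells. The groups did not overlap, as with 11% of all genes that were higher, and the difference was 0.33 (SE 0.12, adjusted p = 0.228).

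Fdft1, which encodes squalene synthase, had 7.43, 7.50 and 7.38 in wild type and 7.38, 6.80 and 7.12 in knockout cells. Its other probe sets differed by -0.32, -0.016 and 0.058. Cyp51, the sterol demethylase gene, had 6.61, 6.49 and 6.17 in wild type and 6.31, 5.48 and 6.08 in knockout cells. In both genes knockout replicate 2 stood lowest and replicate 1 lay within the wild type range. A second Cyp51 probe set was lower without overlap, with a difference of -0.79 (SE 0.19, limma adjusted p = 0.0961 over all probe sets). The remaining Cyp51 probe set differed by -0.22 (adjusted p = 0.397). Msmo1, encoding the methylsterol oxidase, had 6.99, 6.70 and 6.80 in wild type and 6.99, 6.28 and 6.27 in knockout cells. Without knockout replicate 1 its difference was -0.55 and it was called as lower (adjusted p = 0.0418), where with all arrays it was -0.32 (adjusted p = 0.456). More of all genes were also called without that array than with all arrays. Nsdhl, encoding a sterol dehydrogenase, had 8.06 on knockout replicate 1 and 7.19 to 7.42 on the other 5 arrays. Ebp and Lss, the genes of a sterol isomerase and of lanosterol synthase, had differences of 0.057 and 0.11, but the other probe sets of Lss had -0.028 and -0.15. Tm7sf2 and Hsd17b7, encoding a sterol reductase and a ketosteroid reductase, had -0.23 and -0.18. Fdft1, Cyp51, Msmo1 and Nsdhl were singled out after their values were seen.

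**Figure D3:**
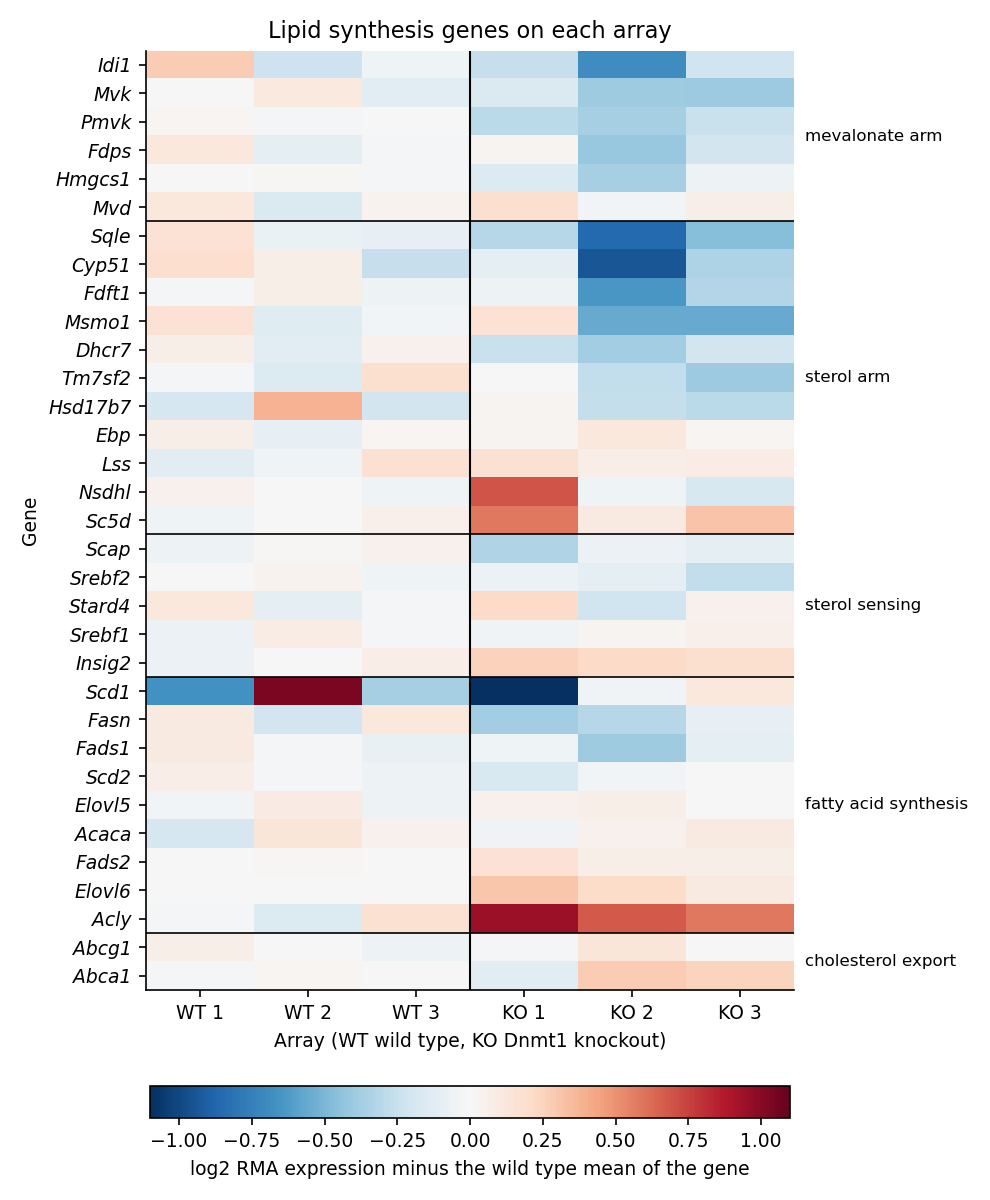
Log2 RMA expression of each measured member (rows, by role) on each array (columns) minus the gene's wild type mean, in colour, with blue for lower and red for higher. Blue in the sterol synthesis rows is deepest on knockout replicates 2 and 3, Acly is red on all 3 knockout arrays, and Scd1 varies widely within both groups.

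The regulators of the pathway differed little in mean, and 0 of 5 were called by limma (0 lower and 1 higher at an unadjusted p under 0.05). Srebf2, the gene of the sterol-responsive factor, had 8.52, 8.56 and 8.47 in wild type and 8.45, 8.41 and 8.25 in knockout cells. The groups did not overlap, though the gap was small, and the difference was -0.15 (SE 0.08, limma adjusted p = 0.411), with -0.27 (adjusted p = 0.162 over all probe sets) for the other probe set. Scap, the gene of the escort protein, had 9.23, 9.30 and 9.33 in wild type and 8.96, 9.23 and 9.18 in knockout cells. These groups touched without overlapping, with a difference of -0.17 (SE 0.09, adjusted p = 0.409). Insig2, whose protein retains the Scap complex, had 6.43, 6.49 and 6.57 in wild type and 6.75, 6.71 and 6.67 in knockout cells. The knockout values were higher without overlap (difference 0.21, SE 0.08, adjusted p = 0.206), but its other probe sets differed by -0.092 and -0.061. Srebf1 differed by 0.017 with a 95% interval from -0.16 to 0.20, and its sign turned under median centring. Stard4, which encodes a sterol carrier protein, differed by 0.012 (interval -0.27 to 0.30), with -0.30 for its other probe set, and its sign turned under quantile normalisation and median centring.

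Among fatty acid genes Acly stood apart from the other 8, none of which was called (0 by limma, with 0 lower and 1 higher at an unadjusted p under 0.05). Acly encodes ATP citrate lyase, which cleaves citrate exported from mitochondria into cytosolic acetyl-CoA, the starting material of fatty acids, sterols and histone acetylation. It was at 10.19, 10.06 and 10.37 in wild type and at 11.15, 10.88 and 10.79 on knockout replicates 1, 2 and 3. All knockout values lay above all wild type values, and the difference was 0.74 (SE 0.12, 95% interval 0.45 to 1.03, limma adjusted p = 0.036). Of its 5 probe sets, 3 were called over all probe sets, with differences of 0.74, 0.77 and 0.64 (adjusted p = 0.0352, 0.0305 and 0.0222). The remaining pair had wild type means of 2.43 and 2.36, near the lowest values on the arrays, and differences of 0.22 and 0.011.

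The Acly call depended on which arrays were kept. It held without knockout replicate 1 (difference 0.63, adjusted p = 0.035) and was lost without each of the other 5 arrays in turn, with differences of 0.66 to 0.82 and adjusted p of 0.147, 0.143 and 0.097 without wild type replicates 1, 2 and 3, and 0.0645 and 0.0579 without knockout replicates 2 and 3. Among the knockout arrays, Acly was highest on replicate 1, which had the lowest neutrophil and the highest T cell and Treg list means. From high to low it ordered these arrays 1, 2, 3, as the T cell and Treg lists did. The part of the cell mixture in the Acly values was not tested. Counted with the sterol genes, a choice made after seeing the data because its product feeds both pathways, Acly moved the fatty acid median to -0.018 and the sterol median to -0.21.

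**Figure D4:**
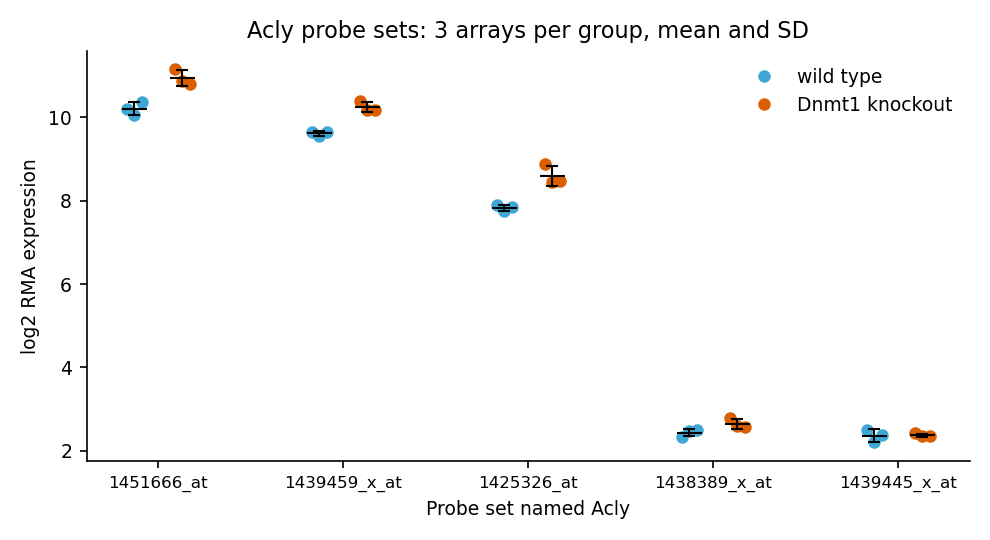
Log2 RMA expression (y axis) of the 5 probe sets named Acly (x axis), with a point for each array and the mean and SD of 3 arrays per group in black. In the 3 brighter probe sets all knockout points lie above all wild type points, and the other pair lies between 2 and 3.

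Fasn and Elovl6 had the next lowest p. Elovl6, encoding the elongase of palmitate, had 7.08, 7.07 and 7.08 in wild type and 7.38, 7.27 and 7.17 in knockout cells. The knockout values were higher without overlap (difference 0.20, SE 0.08, limma adjusted p = 0.249), and its other probe set differed by 0.29 (adjusted p = 0.166 over all probe sets). Fasn, the gene of fatty acid synthase itself, had 8.78, 8.47 and 8.80 in wild type and 8.30, 8.37 and 8.59 in knockout cells. Its groups overlapped, and the difference was -0.26 (SE 0.12, adjusted p = 0.315), opposite in sign to Acly. Scd1, a stearoyl-CoA desaturase gene, spread from 6.20 to 7.91 within wild type and from 5.78 to 6.99 among knockout samples, so that its interval of -1.46 to 0.78 bounds little. Its paralogue Scd2 was tighter, at 8.74 ± 0.07 and 8.67 ± 0.09 (SD, n = 3), with a difference of -0.068.

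The desaturase genes Fads1 and Fads2, for polyunsaturated fatty acids, had differences of -0.18 and 0.097. Elovl5, an elongase gene of the same branch, differed by 0.032 with an interval from -0.15 to 0.21 and turned sign under median centring. Acaca, encoding the carboxylase that commits acetyl-CoA to fatty acids, was at 3.07 and 3.11, below the lower quartile of genes (4.01), where RMA compresses differences. Of the 33 members, 31 were above the dimmest 40% of genes, the exceptions being Acaca and Fads2.

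The cholesterol exporter genes, targets of the sterol-sensing LXR receptors, were not called (0 of 2 by limma, 0 at an unadjusted p under 0.05). Abca1 had 8.05, 8.09 and 8.07 in wild type and 7.96, 8.35 and 8.31 in knockout cells. Knockout replicates 2 and 3 lay above the wild type arrays and replicate 1 below, with a difference of 0.14 (SE 0.11, limma adjusted p = 0.583). Abcg1 had 9.64, 9.57 and 9.52 in wild type and 9.55, 9.71 and 9.57 in knockout cells, a difference of 0.035 (interval -0.15 to 0.22). Both genes had the same order of knockout arrays as the neutrophil markers, an order not counted over all genes, and the part of those cells was not tested.

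Across roles, 12 of the 33 members had groups that did not overlap, where 25% of all genes did, 7 of them lower (14% of all genes) and 5 higher (11%). Of the lower ones, 5 were sterol synthesis genes, namely Hmgcs1, Pmvk, Mvk, Sqle and Dhcr7, and 0 were fatty acid genes. The higher ones were Acly, Elovl6 and Fads2 from fatty acid synthesis, Sc5d from sterol synthesis and Insig2 from sterol sensing. Other probe sets were measured for 20 members, and 11 of these 32 had the opposite sign to the brightest.

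Further genes of sterol handling and of fatty acid synthesis were not called either. Of 20 measured sterol genes outside the list above, for trafficking, esterification and oxysterols, 0 passed limma (3 lower and 1 higher at an unadjusted p under 0.05), with a median difference of -0.021. Mbtps1, encoding the protease that makes the initial cut in SREBP, had 9.11, 9.04 and 9.07 in wild type and 8.90, 8.86 and 8.83 in knockout cells (difference -0.21, SE 0.07, limma adjusted p = 0.185). Osbpl5, encoding an oxysterol-binding protein family member, had 7.20 ± 0.04 and 7.47 ± 0.21 (SD, n = 3, adjusted p = 0.27). Of 36 measured genes that supply, elongate or store fatty acids, 0 passed (2 lower and 3 higher at an unadjusted p under 0.05), with a median difference of 0.035. Hacd3 and Hacd4, dehydratase genes of the elongation cycle, moved apart in mean, from 10.18 ± 0.06 to 9.90 ± 0.06 (adjusted p = 0.121) and from 4.73 ± 0.32 to 5.57 ± 0.53 (adjusted p = 0.17).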

How the data were processed

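Total RNA of 6 samples was labelled with biotin and measured on oligonucleotide arrays. The values the authors deposited are log2 summaries of probe sets, for which the submitters' processing notes name RMA without a version. RMA equalises arrays, so a change in RNA content per cell cannot be seen.

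The table has 22690 probe sets, of which the platform annotation gives 20380 a single gene symbol, 691 several and 1555 none, and 64 are controls. The brightest probe set by the mean of 6 arrays stood for each gene. Groups were compared with limma 3.58.1 (lmFit, eBayes) in R 4.3.3, two-sided, with no filter on dim genes and Benjamini-Hochberg adjustment over 12393 genes. The code was tested on simulated data. The members and gene lists were chosen with earlier results of these data known. Named with full values were called members and the 3 with the lowest p in each role, and in further lists the called genes or the 2 with the lowest p. Marker lists of T cells, Treg, neutrophils, monocytes and macrophages, B cells, erythroid cells, natural killer and CD8 T cells and proliferation were counted. Alternatives were quantile, median and cyclic loess scaling, a filter on the dimmest 40%, averaged or separate probe sets, array weights, a robust variance with a trend, a replicate block and each array left out. Figures were drawn with matplotlib 3.10.9.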

Additional observations from a re-analysis of the deposited data

How the results depend on the processing

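The sterol median stayed negative (-0.30 to -0.19) and the sterol minus fatty acid difference too (-0.36 to -0.16) under every alternative run, while the fatty acid median took both signs (-0.068 to 0.10). Scaling, filtering, averaging probe sets and variance settings kept Acly as the only member called. Its limma adjusted p was near the threshold with averaged probe sets (0.0498, difference 0.47) and median centring (0.0458). With the robust variance and trend it was 0.0172. Same-numbered samples share only a number: their deviations from the group means correlated at -0.08, 0.15 and -0.04 across genes, and 2 of 6 samples correlated best with their own number. With the replicate block, no member was called (0, Acly at an adjusted p of 0.0716 by limma) and 147 genes passed instead of 236. The block also ended the call on Acot7 (adjusted p = 0.0585) and kept that on Mgll (0.0225). With 1 array left out, 0 to 2 members and 21 to 544 genes were called: 21, 44 and 21 without wild type replicates 1, 2 and 3, and 544, 226 and 115 without knockout replicates 1, 2 and 3. Called genes split into 185 higher and 57 lower with cyclic loess and 163 and 98 with median centring. The median of all genes was between -0.048 and 0.0023 under the scalings.

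Some uncalled members changed sign. Stard4 was at -0.041 with quantile normalisation, -0.021 with median centring and -0.14 with averaged probe sets. Median centring also turned Srebf1 (-0.016) and Elovl5 (-0.0016), and averaged probe sets turned Lss (-0.025). With 1 array left out, Stard4 ranged from -0.085 to 0.13 (-0.041 without wild type replicate 2 and -0.0045 without knockout replicate 3) and Srebf1 from -0.017 to 0.058 (-0.0034 without knockout replicate 3). The ranges were -0.012 to 0.13 for Mvd, -0.28 to 0.016 for Hsd17b7, -0.057 to 0.10 for Acaca, -0.11 to 0.32 for Nsdhl, -0.014 to 0.069 for Abcg1 and -0.67 to 0.18 for Scd1 (0.040 without knockout replicate 1). The cause of these changes was not tested. Members near the floor of the arrays, such as Acaca, allow no reading of small differences.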

Other observations

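Of 39 measured genes of fatty acid oxidation, lipolysis and fatty acid binding, 2 were called higher by limma and 0 lower, and their median difference was -0.023. Acot7, encoding a thioesterase that frees fatty acids from coenzyme A, had 9.11, 8.98 and 9.03 in wild type and 9.56, 9.57 and 9.71 in the knockout, a 1.49-fold rise (difference 0.58, SE 0.08, limma adjusted p = 0.0223). Mgll, encoding monoacylglycerol lipase, had 4.05, 4.23 and 4.60 in wild type and 5.53, 6.74 and 6.38 in the knockout, a 3.78-fold rise (difference 1.92, SE 0.30, adjusted p = 0.0264). In both genes all knockout values lay above all wild type values. The call on each was lost without any wild type array and without knockout replicate 3, with adjusted p between 0.0564 and 0.125. Mgll ordered the knockout arrays 1, 3, 2 from low to high, as the neutrophil marker list did, and the part of those cells was not tested.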
